A study of Danio rerio with 8 samples.

Results

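Vacuolar ATPase, cathepsin and LAMP genes were followed across the 5 clusters of cells sorted from adult zebrafish skin with iridophore reporters. The members were all genes whose symbol begins with atp6v, atp6ap, cts and a letter, or lamp and a digit from 1 to 5, a rule that uses no measured value. It found 44 of 19914 genes: 13 of the V1 sector of the pump, 9 of the V0 sector, 4 of accessory proteins, 15 cathepsins and 3 LAMP genes. Iridophores are the reflecting pigment cells of fish skin, and carry stacks of guanine crystals inside membrane-bound organelles.

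The cells came from flank dermis of untreated adult fish that carried the reporters pnp4a:palmmCherry and pnp4a:nlsEos, both driven by regulatory sequence of the iridophore gene pnp4a. Dark stripe skin and light interstripe skin were dissected and dissociated apart, skin of different fish was combined in each cycle, and cells bright for both reporters were sorted into 96-well plates. There were 4 plates labelled dark and 4 labelled light. The deposited values pool the cells of all 8 plates by cluster, with 194 cells in c1, 176 in c2, 122 in c3, 82 in c4 and 72 in c5, 646 in all. The study describes c5 as mostly stripe cells, c3 as mostly interstripe cells, c1 as shared by both, and c2 and c4 as lower in iridophore markers.

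Since plates and fish are pooled, a cluster has no replicates, and no comparison here carries a test. A cluster cannot be told apart from the plates and fish that filled it. Clusters were also formed on the expression of all genes, so every difference between them is a description. Each gene has a share, a mean and a level. The first is the share of cells with the gene, with an exact Clopper-Pearson 95% interval that covers counting error only. The second is the mean over all cells of ln(corrected count + 1), where ln is the natural log, with the SD over cells, which is the spread among cells and not an error between fish. The third is the same mean over only the cells with the gene, called the level in positive cells. A corrected count is the number of distinct transcript tags (UMIs) after the study's depth correction, and is not divided by transcript length.

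The vacuolar ATPase (V-ATPase) is the proton pump that acidifies lysosomes, endosomes and related organelles such as melanosomes. Its cytosolic V1 sector burns ATP and turns a rotor, and its membrane-embedded V0 sector carries protons through a ring that turns with the rotor. Cathepsins are proteases of the acid lumen that the pump maintains, and LAMPs are the heavily glycosylated proteins that line the lysosomal membrane. In zebrafish, loss of V-ATPase subunits is known to pale the body and eye pigment, and iridophore crystal organelles are widely regarded as relatives of the lysosome. No sequence or promoter of the members was used here, and their coordinates served only to find neighbouring genes.

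The iridophore marker gpnmb was found in most cells of every cluster, with lower means in c2 and c4, but some other iridophore markers were sparse. gpnmb, which encodes a pigment organelle glycoprotein, was found in 91.2% of c1, 80.1% of c2, 95.1% of c3, 97.6% of c4 and 88.9% of c5 cells. Its mean was 1.80 ± 1.67 in c2 and 1.92 ± 1.07 in c4, against 3.41 in c1, c3 and c5 pooled. Of 6 iridophore markers found in at least 10% of all cells, 4 were lower by 0.5 or more in c2 and 2 in c4, and 0 were higher. Of all 1467 genes so found, 11.7% were lower in c2 and 5.25% in c4. Among the 6, paics had a higher mean in c4, at 0.62 against 0.36 pooled. The rarer ltk, ednrba, gart and alx1 were found in 34, 31, 20 and 9 of 646 cells. All 10 listed iridophore markers together made up 0.405, 0.388, 0.392, 0.322 and 0.365% of detected genes in c1 to c5. Xanthophore markers, of 8 measured, were at 0.340, 0.670, 0.270, 0.671 and 0.306 per cell in c1 to c5. As a part of detected genes they were 0.0431, 0.0907, 0.0320, 0.0481 and 0.0375%, highest in c2. Of 15 measured macrophage and leukocyte markers, cells that are rich in cathepsins and lysosomes, none was found in 10% or more of all cells. The macrophage gene mpeg1.1 was found in 9 of 646 cells and the scavenger receptor gene marco in 5, of which 4 lay in c2. mpeg1.1 was at 0 in c4, and marco was at 0 in c1, c4 and c5. Other markers were wider, with coro1a in 53 cells, 15 of them among the 82 of c4, cd74a in 38, and lcp1 in 17, of which 6 lay in c4. A cell held on average 0.330, 0.460, 0.336, 0.585 and 0.375 of these 15 markers in c1 to c5. As a part of detected genes they were 0.0418, 0.0622, 0.0397, 0.0419 and 0.0460%, highest in c2 and not in c4. Their part in the values below was not tested. A cell had 789 detected genes on average in c1, 740 in c2, 846 in c3, 1395 in c4 and 815 in c5, so c4 stood apart from the other clusters.

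The share of all 646 cells reached 10% for 12 of the 44 members (27.3%), beside 1467 of all 19914 genes (7.37%). The 12 were atp6v0e1, atp6v0ca and atp6v0cb of V0, atp6v1h, atp6v1e1b and atp6v1g1 of V1, the accessory gene atp6ap2, and the cathepsin genes ctsf, ctsba, ctsd, ctsla and ctsa. None of the LAMP genes was among them. The other 32 were found in 0 to 17.1% of the cells of a cluster. A cell carried 3.31 detected members in c1, 2.97 in c2, 3.74 in c3, 7.17 in c4 and 3.68 in c5, which was 0.420, 0.402, 0.442, 0.514 and 0.452% of its detected genes. As a part of detected genes, members were thus most in c4 and fewest in c2, within a range from 0.402 to 0.514%. More of the members than of all genes were widely found, and the share ratio of c4 was larger among such genes, as given below. This part is therefore not a comparison of genes of like share.

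**Figure D1:**
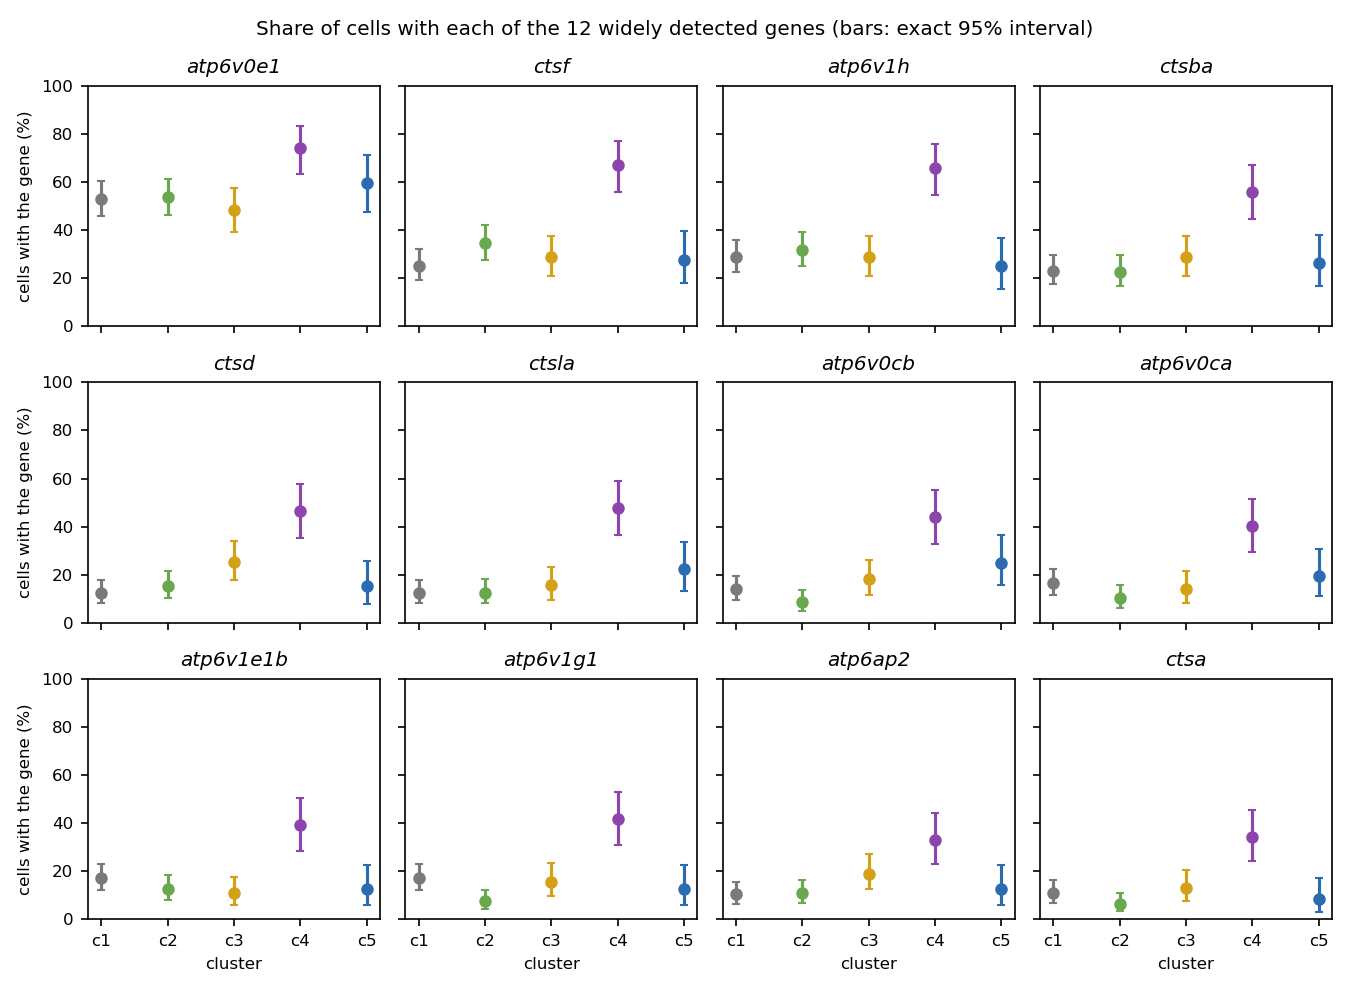
Share of cells (%) with each of the 12 members seen in at least 10% of all cells, by cluster, with bars for the exact 95% interval over 194, 176, 122, 82 and 72 cells in c1 to c5. The c4 point is the highest in all 12 panels, from 32.9% for atp6ap2 to 74.4% for atp6v0e1, while the other 4 clusters lie closer together.

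The V0 sector was led by atp6v0e1 (ENSDARG00000101794), which encodes the small e subunit and was the most widely found member. It was found in 53.1% of c1 cells (45.8 to 60.3%), 54.0% of c2 (46.3 to 61.5%), 48.4% of c3 (39.2 to 57.6%), 74.4% of c4 (63.6 to 83.4%) and 59.7% of c5 (47.5 to 71.1%). Its mean over all cells was 1.00 ± 1.29 in c1, 0.80 ± 1.12 in c2, 0.90 ± 1.30 in c3, 0.89 ± 0.83 in c4 and 1.06 ± 1.31 in c5 (SD over cells). The means spanned a range of 0.80 to 1.06, far inside the spread among cells.

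The proteolipid c subunit, of which the proton-carrying ring is built, has 2 genes in the table. atp6v0ca was found in 114 of the 646 cells and atp6v0cb in 118. Their coding sequences are known to be close, and whether reads were shared between them was not checked, so each value is uncertain as to which copy it came from. atp6v0cb had means of 0.40 ± 1.07 in c1, 0.14 ± 0.56 in c2, 0.38 ± 0.98 in c3, 0.48 ± 0.82 in c4 and 0.66 ± 1.29 in c5. atp6v0ca had means of 0.49 ± 1.22, 0.20 ± 0.74, 0.23 ± 0.71, 0.40 ± 0.72 and 0.46 ± 1.14 in the same order. Both were lowest in c2, but the highest mean lay in c5 for atp6v0cb and in c1 for atp6v0ca.

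atp6v0d1 (ENSDARG00000069090) encodes the d subunit, which couples the rotor of V1 to the ring of V0. It was found in 13 of 194 c1 cells (6.70%, 3.62 to 11.2%), 4 of 176 c2 cells (2.27%, 0.623 to 5.72%), 2 of 122 c3 cells (1.64%, 0.199 to 5.80%), 6 of 82 c4 cells (7.32%, 2.73 to 15.2%) and 10 of 72 c5 cells (13.9%, 6.87 to 24.1%). The interval of c5 did not overlap those of c3 and c2, and did overlap those of c1 and c4. How often such intervals fail to overlap over all genes was not counted. This gene lies under the 10% rule and was singled out after its values were seen.

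The other V0 genes were sparse. The a subunit forms the channels through which protons reach and leave the ring, and its genes atp6v0a1a, atp6v0a1b, atp6v0a2a and atp6v0a2b were found in 21, 11, 11 and 17 of 646 cells. atp6v0b, which encodes a second kind of ring proteolipid, was found in 17. None of these 5 exceeded 6.10% of the cells of any cluster, and neither a2 gene was found in c5, where 0 of 72 cells allows a share of up to 4.17% as 3 cells, or 4.99% by the exact interval. The a3 subunit is encoded by tcirg1a, whose symbol falls outside the rule. It was found in 37.1% of c1, 39.8% of c2, 35.2% of c3, 70.7% of c4 and 51.4% of c5 cells.

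In the V1 sector the widest was atp6v1h, whose product regulates the coupling of ATP use to the rotor. It was found in 28.9% of c1, 31.8% of c2, 28.7% of c3, 65.9% of c4 and 25.0% of c5 cells. Its means were 0.86 ± 1.46, 0.49 ± 0.96, 0.79 ± 1.38, 0.69 ± 0.77 and 0.73 ± 1.39 in c1 to c5. The lowest mean was again that of c2, although c2 had a larger share than c1, c3 and c5, so the 2 quantities gave different orders.

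The E and G subunits make up the peripheral stalks that hold the ATP-burning head still. atp6v1e1b had means of 0.54 ± 1.29 in c1, 0.24 ± 0.72 in c2, 0.31 ± 0.97 in c3, 0.28 ± 0.35 in c4 and 0.33 ± 0.95 in c5. atp6v1g1 had means of 0.50 ± 1.19, 0.13 ± 0.59, 0.40 ± 1.05, 0.34 ± 0.49 and 0.35 ± 1.00 in the same clusters. Both were highest in c1 and lowest in c2. The paralog of the E gene, atp6v1e1a, was found in 21 of 646 cells against 109 for atp6v1e1b.

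The catalytic head was hardly seen. The A subunit, which burns the ATP, is encoded by atp6v1aa and atp6v1ab, found in 21 and 22 of 646 cells. The B subunit is encoded by atp6v1ba and atp6v1b2, found in 21 and 15. None of the 4 exceeded 5.56% of the cells of a cluster. The C subunit genes atp6v1c1a, atp6v1c1b and atp6v1c2 were found in 38, 18 and 6 cells, and the rotor shaft genes atp6v1d and atp6v1f in 46 and 30. Subunits that assemble into 1 complex were thus detected in very different numbers of cells, from 6 for atp6v1c2 to 361 for atp6v0e1. Capture efficiency of each transcript was not measured, so these numbers are not ratios of transcripts.

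Of the accessory proteins, atp6ap2, also known as the prorenin receptor and required for pump assembly, was found in 10.3% of c1, 10.8% of c2, 18.9% of c3, 32.9% of c4 and 12.5% of c5 cells. Its means were 0.25 ± 0.87, 0.22 ± 0.76, 0.40 ± 0.97, 0.34 ± 0.71 and 0.35 ± 1.03 in c1 to c5. Those of c3 and c5 were close, although c3 had the larger share. atp6ap1b and atp6ap1a, the genes of the other assembly factor, were found in 30 and 13 of 646 cells, and atp6ap1lb, related to them by name, in 11.

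Among the cathepsins, ctsf and ctsba encode cysteine proteases. ctsf had means of 0.62 ± 1.21 in c1, 0.56 ± 1.08 in c2, 0.77 ± 1.35 in c3, 0.81 ± 0.89 in c4 and 0.80 ± 1.48 in c5. ctsba, the gene of cathepsin B, had means of 0.61 ± 1.23, 0.32 ± 0.76, 0.71 ± 1.30, 0.50 ± 0.52 and 0.69 ± 1.33. Their c3 and c5 means were nearly equal, at 0.77 and 0.80 for ctsf and at 0.71 and 0.69 for ctsba. The second cathepsin B gene, ctsbb, was found in 9 cells, against 185 for ctsba.

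ctsd (ENSDARG00000057698) encodes cathepsin D, the aspartyl protease of the lysosome. It was found in 12.4% of c1 cells (8.09 to 17.8%), 15.3% of c2 (10.4 to 21.5%), 25.4% of c3 (18.0 to 34.1%), 46.3% of c4 (35.3 to 57.7%) and 15.3% of c5 (7.88 to 25.7%). Its means were 0.37 ± 1.08, 0.29 ± 0.84, 0.71 ± 1.33, 0.37 ± 0.48 and 0.36 ± 1.02 in c1 to c5. The c3 mean stood above the other 4, which lay between 0.29 and 0.37. For the shares, the interval of c3 lay above that of c1 and below that of c4 without overlap. It overlapped those of c2 and c5. The gap to c1 was narrow, with the c1 interval ending at 17.85% and that of c3 starting at 17.96%. A raised c4 share was also not special to ctsd, since 99.5% of the 1467 widely found genes had one relative to the pooled clusters. How often such intervals stay apart over all genes was not counted.

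ctsla, the gene of the cysteine protease cathepsin L, had means of 0.33 ± 1.00 in c1, 0.25 ± 0.86 in c2, 0.36 ± 1.00 in c3, 0.55 ± 0.82 in c4 and 0.51 ± 1.12 in c5. ctsa encodes a serine carboxypeptidase that also protects other lysosomal hydrolases, and had means of 0.30 ± 0.97, 0.20 ± 0.84, 0.34 ± 1.05, 0.47 ± 0.94 and 0.20 ± 0.73. Both were highest in c4. In c5, ctsla was near its c4 mean while ctsa was at its lowest.

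The other 10 cathepsin genes were found in 5 to 51 of 646 cells, the most for ctss1 and the fewest for ctsl.1. ctss1 encodes a cathepsin S, a protease known from antigen-presenting cells in mammals, and was found in 8.25% of c1, 3.41% of c2, 4.92% of c3, 17.1% of c4 and 12.5% of c5 cells. ctsk, ctss2.1 and ctss2.2 are neighbouring protein-coding genes in the zebrafish assembly and were found in 15, 9 and 7 cells. The cysteine protease genes ctsz, ctsc, ctsh and ctso were found in 14, 13, 12 and 10. Of the 7 cells with ctss2.2, 4 were in c2. Whether these cells also held leukocyte markers was not tested.

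LAMP genes stayed low. lamp2 was found in 5.15% of c1 cells (2.50 to 9.28%), 1.70% of c2 (0.353 to 4.90%), 8.20% of c3 (4.0 to 14.6%), 4.88% of c4 (1.34 to 12.02%) and 9.72% of c5 (4.0 to 19.0%). The intervals overlapped for all pairs of clusters. lamp1b and lamp1a were found in 21 and 6 of 646 cells.

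The comparison of c5 with c3 asks how iridophores mostly of stripes differ from those mostly of interstripes. A gene was counted as higher or lower when its mean differed by at least 0.5, a factor of about 1.65 in the corrected count plus 1, among genes found in at least 10% of all cells. Of the 12 members, 0 were higher and 0 lower in c5, while 5.93% of 1467 genes were higher and 4.36% lower. Here and below, a gene with a mean under 0.5 in the reference clusters could not be lower by 0.5. Of the 12, only atp6v0e1, atp6v1h, ctsf, ctsba and ctsd had c3 means above that, from 0.71 to 0.90. The median difference of the 12 was 0.00, beside 0.01 over all 1467, and 6 of the 12 had the higher mean in c5, as had 52.8% of the 1467. The study's own enrichment of its differential genes places a V-type ATPase complex first among cellular component terms by combined score. No term of that list had a small p-value after adjustment. The study's text ties the list to c5 and c3, but its caption names c2 and c4. It rests on other criteria and was not compared with these counts.

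**Figure D2:**
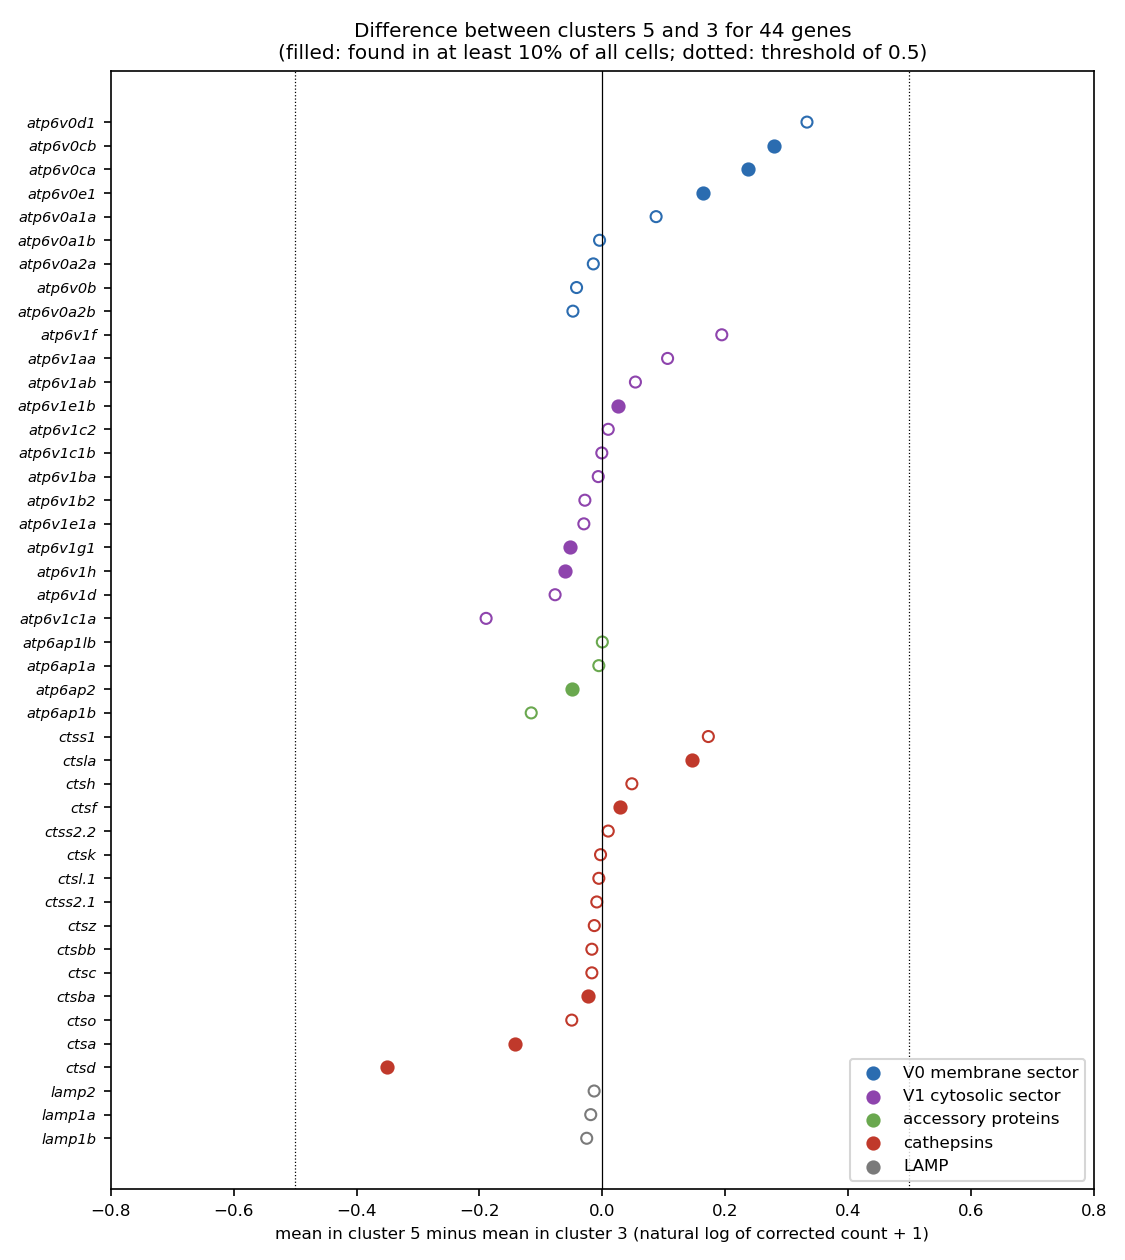
Mean in c5 minus mean in c3, in natural log units, for the 44 members in 5 groups, with filled points for the 12 found in at least 10% of all cells and dotted lines at differences of 0.5 either way. All points lie inside the dotted lines, the largest being 0.33 for atp6v0d1 and -0.35 for ctsd, and 5 of the 9 V0 points lie to the right of 0. The points that are not filled could not reach the lines, since no such member had a mean of 0.5 in any cluster.

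Differences between the groups of members were not tested. In V0, the 3 widely found genes all had higher means in c5, by 0.28 for atp6v0cb, 0.24 for atp6v0ca and 0.16 for atp6v0e1, and atp6v0d1 was higher by 0.33. Over all 9 V0 genes, 5 had the higher mean in c5 and the median difference was 0.09, with the other 4 lower by at most 0.05. Of all 19914 genes, 42.6% were higher and 53.9% lower in c5. In V1, the differences of the 3 widely found genes were -0.06 for atp6v1h, -0.05 for atp6v1g1 and 0.03 for atp6v1e1b, and 5 of 13 genes were higher in c5, with a median of -0.01. The largest in V1 were 0.19 for atp6v1f, found in 8.33% of c5 and 3.28% of c3 cells, and -0.19 for atp6v1c1a, found in 2.78% and 9.02%.

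All 4 accessory genes were equal or lower in c5, with -0.12 for atp6ap1b and -0.05 for atp6ap2. Of 15 cathepsins, 10 had the lower mean in c5, beside 53.9% of all 19914 genes, and the median was -0.01. ctsd had the largest difference of any member, -0.35, followed among cathepsins by ctss1 at 0.17, ctsla at 0.15 and ctsa at -0.14. The 3 LAMP genes differed by -0.03 to -0.01. Over all 44 members the median was -0.01, beside 0.00 over all 19914 genes. Genes detected per cell, 815 in c5 and 846 in c3, moved little between the 2 clusters.

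Share and level in positive cells did not always go together. The level in positive cells was higher in c5 by 0.75 for atp6v0ca, 0.68 for atp6ap2 and 0.53 for atp6v0cb, and the share of atp6ap2 was nonetheless smaller in c5. atp6v0e1 had a share larger by 11.4 percentage points in c5 with a level in positive cells that differed by -0.08. ctsd was lower in both, by 10.1 points and 0.43.

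For rare members the corrected counts of the single cells could be worked back from the mean and SD, as described under the processing. This was possible for 141 of the 205 pairs of a member and a cluster that held cells with it. For atp6v0d1, the 2 c3 cells held 3 and 8 counts, and the 10 c5 cells held 1, 3, 5, 10, 17, 21, 24, 25, 31 and 49. The 4 c2 cells held 7, 7, 7 and 15, and the 6 c4 cells 1, 1, 11, 12, 24 and 26. The median was 19 counts over the 10 c5 cells and 5.5 over the 2 c3 cells, too few to compare their content. Per cell of the cluster, including those with none, c5 held 2.58 counts, c4 0.915, c2 0.205 and c3 0.0902. The 13 c1 cells were not solved, so c1 is missing from this order. Their level in positive cells was 2.52, beside 2.61 in c5, and the mean over all cells was 0.17 in c1 and 0.36 in c5.

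**Figure D3:**
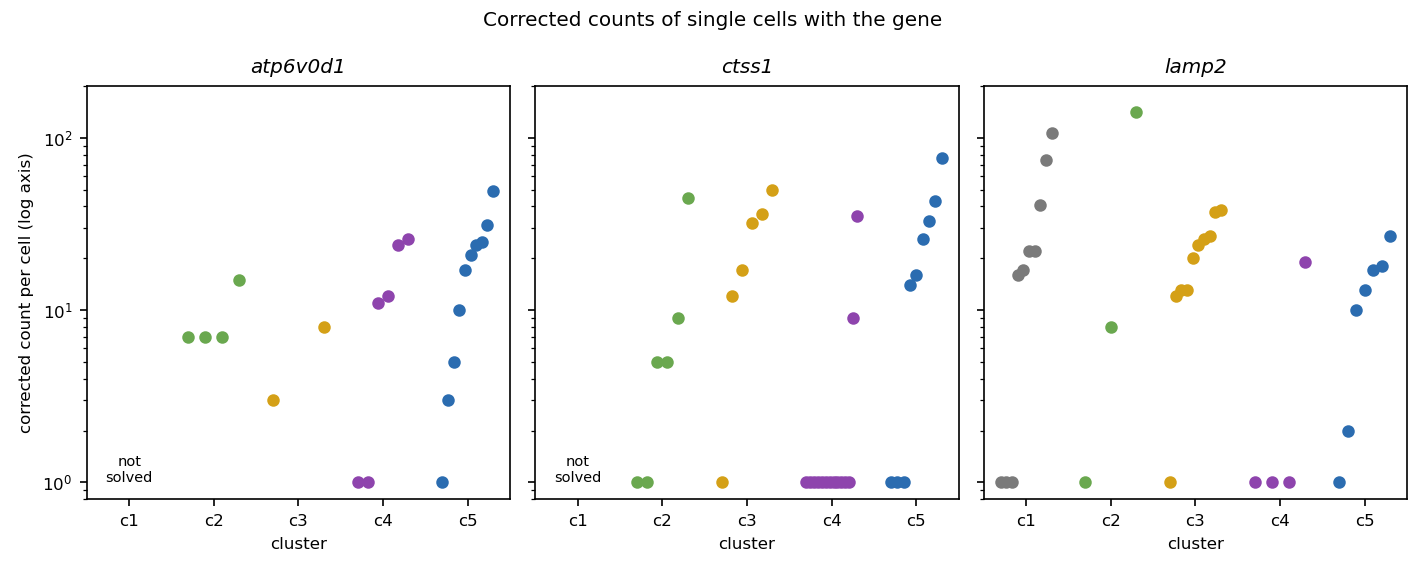
Corrected counts on a log axis for each single cell with atp6v0d1, ctss1 or lamp2, by cluster. The 2 c3 cells with atp6v0d1 lie at 3 and 8 while 7 of the 10 c5 cells lie at 10 or more, and 12 of the 14 c4 cells with ctss1 lie at 1. Sets marked as not solved are the 13 and 16 c1 cells whose counts could not be worked back.

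lamp2 showed how uneven a rare gene was among the cells that had it. Its 10 c1 cells held from 1 to 106 counts with a median of 19.5, its 10 c3 cells from 1 to 38 with a median of 22, and its 7 c5 cells from 1 to 27 with a median of 13. The 4 c4 cells held 1, 1, 1 and 19. Of the 3 c2 cells, 1 held 141 counts and the others 1 and 8. Each cluster mean of lamp2 thus rested on only 3 to 10 cells with the gene.

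ctss1 had counts of 1, 12, 17, 32, 36 and 50 in its 6 c3 cells and of 1, 1, 1, 14, 16, 26, 33, 43 and 76 in its 9 c5 cells. In c4, 12 of its 14 cells held a single count. The catalytic genes atp6v1aa and atp6v1ab were seen in few c5 cells, but with 14 to 37 counts in 4 cells and 14 to 56 in 3. atp6v1b2 never exceeded 5 counts where it was found. Over the 32 rarer members, the solved values at a single count made up 42.1, 35.6, 40.9, 33.3 and 28.8% in c1 to c5. All 105 values of c4 and all 73 of c5 were solved, but only 126 of 176 in c1, 101 of 124 in c2 and 110 of 132 in c3. The unsolved sets were mostly those of many cells or high counts. They also held the 4 c2 cells with atp6v1aa, whose level in positive cells was 2.07.

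Cluster c1, in which stripe and interstripe cells are both present, was set beside c3 and c5. Of the 12, 4 had a c1 mean between those of c3 and c5, 4 above both and 4 below both, beside 50.2, 19.6 and 30.3% of all 1467 genes. A c1 mean outside the range of c3 and c5 was thus common among all genes too, and whether the 12 differ from them was not tested. Those above both were atp6v0ca and the V1 genes atp6v1h, atp6v1e1b and atp6v1g1. Those below both were atp6ap2, ctsf, ctsba and ctsla. atp6v1e1b had the widest gap, at 0.24 above c3 and 0.21 above c5. The 3 widely found V1 genes were thus all highest in c1.

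Cluster c4 combined many positive cells with low levels. Against c1, c3 and c5 pooled, 0 of the 12 members were higher by 0.5 and 0 were lower, beside 4.70% and 5.25% of all genes. Only atp6v0e1, atp6v1h, ctsf and ctsba had pooled means above 0.5, at 0.98, 0.81, 0.70 and 0.66, so the others could not be lower by 0.5. Of 535 genes found in at least 25% of all cells, 14.4% were lower, beside 0 of those 4 members. The median difference of the 12 was -0.04, beside 0.03 for all. The differences ranged from -0.15 for ctsba and atp6v1e1b to 0.18 for ctsla and ctsa.

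Taken apart, the 2 components of the mean went in opposite directions. All 12 members had a larger share in c4 than in the pooled clusters, by a median of 26.2 percentage points. So did 99.5% of the 1467 genes found in at least 10% of all cells, by 23.7 points. All 12 also had a lower level in positive cells, by a median of 1.47, and 93.3% of the 1467 did, by 1.35. With no filter, the share was larger for 32 of 44 members and 66.3% of all 19914 genes. The level was then lower for 24 of 43 members and 32.3% of the 17484 genes with a level on both sides. The median level in positive cells of the 12 was 1.05 in c4, beside 2.80 in c1, 1.85 in c2, 2.54 in c3 and 2.63 in c5. Among the 1467 genes, neither direction was particular to the members, and c4 cells had more genes detected. Shares and detected genes both rest on corrected counts, and how far the correction shaped those of c4 was not tested.

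**Figure D4:**
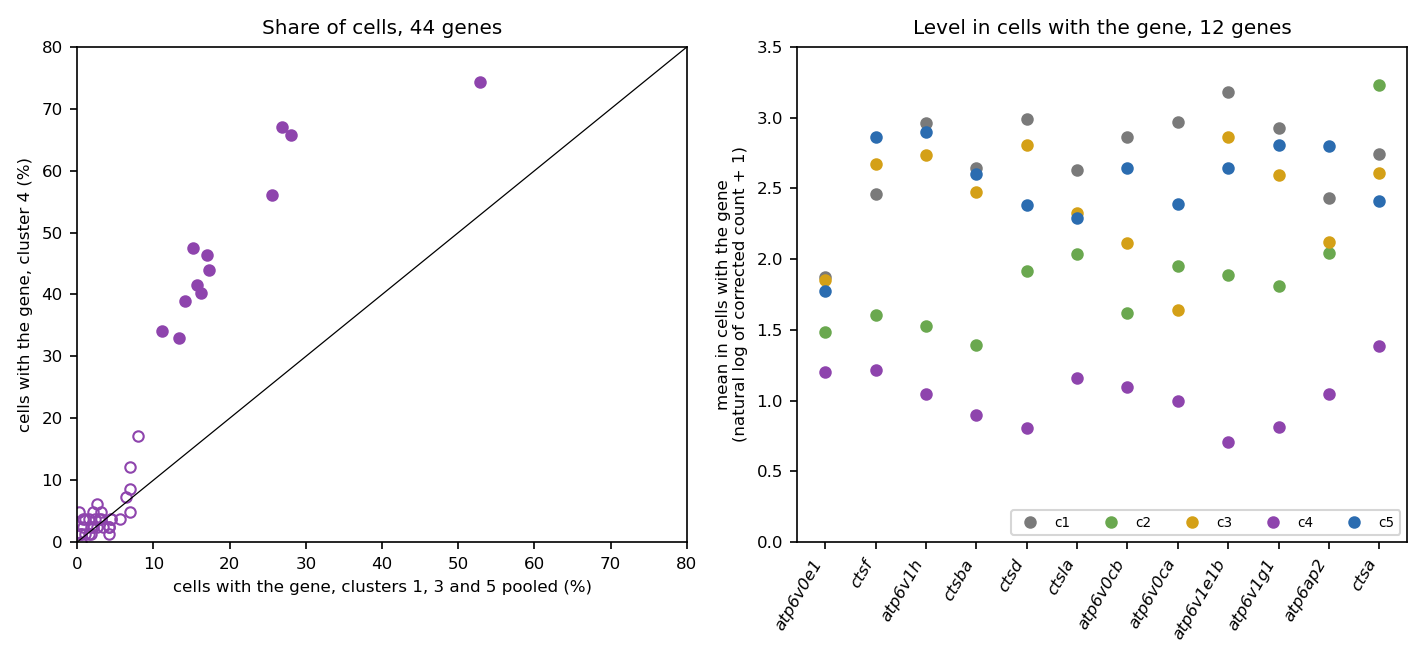
Left, share of cells (%) with each of the 44 members in c4 against c1, c3 and c5 pooled, with filled points for the 12 found in at least 10% of all cells and a line of equality. Right, level in positive cells in ln(corrected count + 1) of the 12 by cluster. All 12 filled points lie above the line, and the c4 levels, from 0.71 to 1.39, are the lowest of the 5 clusters for each gene.

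The single cells made this concrete. Of the 32 c4 cells with atp6v1e1b, 31 held exactly 1 corrected count and 1 held 2, whereas the level in positive cells was 3.18 in c1, or about 23 counts. Of the 34 c4 cells with atp6v1g1, 31 held 1 count and the others 2, 7 and 18. Its 13 c2 cells held from 1 to 74 with a median of 3.

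The larger share in c4 was not common to rare and widely found members. The 8 members seen in 10 to 20% of the pooled cells had a median ratio of shares of 2.68, and 8 of 8 were larger in c4. For the 4 members seen in 20% or more, the median ratio was 2.27, beside 2.02 for 588 of all genes. For the 6 members seen in 5 to 10%, the median ratio was 1.18 and 4 of 6 were larger. For the 26 found in under 5%, the median ratio was 1.24 and 16 of 26 were larger. All genes showed the same break, with median ratios of 2.54 for 760 genes at 10 to 20%, 1.29 for 1847 at 5 to 10% and 1.46 for 16677 under 5%. The level in positive cells broke at the same place. In the 5 to 10% band of members it was 1.82 in c4 and 2.57 in the pooled clusters, and for those in 10 to 20% it was 1.02 and 2.60. The sum of detected members per cell was 2.04 times that of the pooled clusters, beside 1.72 times for all genes. More of the members than of all genes were widely found, and how far that set these sums apart was not tested.

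Within c4, cathepsins made up a larger part of the detected members than in c3 or c5. A c4 cell had 2.89 detected cathepsins, 1.88 V1 genes, 1.84 V0 genes, 0.451 accessory genes and 0.110 LAMP genes. In c3 the same sums were 1.34, 1.03, 0.951, 0.270 and 0.139. In c5 they were 1.21, 0.931, 1.26, 0.167 and 0.111, so that V0 was the most detected group in c5 and cathepsins the most detected in c3 and c4. Macrophage and leukocyte markers, many of whose cells express cathepsins, were at 0.585 per c4 cell and 0.375 per c5 cell, and ionocyte markers, of cells rich in V-ATPase, at 0.293 and 0.0972. As a part of detected genes, the former were 0.0419% in c4 and 0.0460% in c5, and the latter 0.0210% and 0.0119%. Their part in these sums was not tested.

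Cluster c2 had lower means for the widely found members, much as for all genes. Against c1, c3 and c5 pooled, 0 of the 12 were higher by 0.5 and 0 lower, beside 1.57% and 11.7% of the 1467. As for c4, only atp6v0e1, atp6v1h, ctsf and ctsba had pooled means high enough to be lower by 0.5. Of 535 genes found in at least 25% of all cells, 32.1% were lower, beside 0 of those 4 members. All 12 had the lower mean, as had 88.1% of the 1467. The median was -0.19 for the members and -0.18 for the 1467. The largest differences were -0.34 for ctsba, -0.32 for atp6v1h, -0.31 for atp6v1g1 and -0.30 for atp6v0cb. c2 had the lowest mean of the 5 clusters for 11 of 12 members and for 70.9% of the 1467. The exception was ctsa, whose lowest mean was in c5. Over all 44 members, 15 had the higher mean in c2, among them 8 of the 15 cathepsins, beside 44.2% of all 19914 genes. The other 29 were lower, beside 55.8% of the 19914.

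Most of the 12 members had both a smaller share and a lower level in positive cells in c2. The 2 quantities have unlike units, and their parts in the lower means were not compared. The share in c2 was smaller for 9 of 12 members by a median over the 12 of 2.66 percentage points, beside 2.72 points for the 1467 genes. It was larger for 3 of 12 members and 31.2% of the 1467. The level in positive cells was lower for 11 of 12, with a median difference of -0.92, beside 82.5% and -0.65 for the 1467. With no filter, the level was lower for 28 of 44 members and 51.7% of the 18770 genes with a level on both sides. ctsa was the exception with 3.23 in c2, above 2.74 in c1, 2.61 in c3, 1.39 in c4 and 2.41 in c5. c2 also had the fewest genes detected per cell.

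Other genes of the lysosome were taken from 6 lists of V-ATPase partners, lysosomal hydrolases, membrane and transport proteins, sorting proteins, regulators and cathepsin inhibitors. Of their 145 measured genes, 25 were found in at least 10% of all cells. Between c5 and c3, 1 of the 25 was higher and 1 lower by 0.5, beside 5.93% and 4.36% of all 1467 genes. The median of the 25 was -0.02. The higher was tcirg1a of the V0 a3 subunit, with means of 1.54 ± 1.66 in c5 and 0.83 ± 1.34 in c3. The lower was cst3, the gene of the cathepsin inhibitor cystatin C, with 0.80 ± 1.36 and 1.37 ± 1.64.

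sort1a, the gene of the sorting receptor sortilin, differed by 0.35 between c5 and c3. In c4 against the pooled clusters, 0 of the 25 were higher and 0 lower, beside 4.70% and 5.25% of all 1467 genes. The largest differences were -0.40 for tcirg1a, 0.38 for the thioesterase gene ppt1 and -0.26 for lgmn. In c2, 0 of the 25 were higher and 3 lower, beside 1.57% and 11.7% of all 1467 genes. The 3 were lgmn at -0.75, tcirg1a at -0.59 and the cystatin gene cst14a.2 at -0.55. lgmn encodes legumain, an asparaginyl endopeptidase that cleaves cathepsin precursors, and was found in 53.4% of all cells, close to the 55.9% of atp6v0e1. Its means were 1.33 ± 1.77 in c1, 0.70 ± 1.16 in c2, 1.69 ± 1.72 in c3, 1.19 ± 0.93 in c4 and 1.40 ± 1.72 in c5. Like 11 of the 12 members, it was lowest in c2.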

How the data were processed

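Per the study's methods, the authors aligned reads to GRCz11 and counted UMIs with STAR. They kept cells by detected genes and counts, corrected counts with SCTransform and clustered the cells. That correction brings cells to a common depth, so shares, detected genes and levels all rest on its model. No doublet call is named in the sources used here. bcl2fastq 2.20 is in the submitters' processing notes. The deposited table lists, for every gene and cluster, what percent of the cells had the gene. For those cells it adds the mean and SD of ln(corrected count + 1), where ln is the natural log. It holds no cell barcodes and no values per plate, so depth per sample was not analysed here. A table of the authors' own comparison of c5 and c3 (fold changes, p-values) was not used.

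Cell numbers were taken from the percents, and means and SDs over all cells were rebuilt from these columns. Floors for a count of 0 are 3 cells. Genes were named by being found in at least 10% of all cells. Rarer members are named to account for every subunit, and the values singled out among them were chosen after they were seen. Of the pathway lists, the 3 genes with the largest absolute difference in each comparison are named. Members and lists were chosen with earlier results of these data known.

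Single-cell counts were recovered where the exponential of cells times the mean was a whole number within a tolerance and only 1 set of counts gave the SD. For the sets with the largest such products any value lay within the tolerance, so only the match to the SD could fail there. The plan foresaw this for genes in 1 or 2 cells, and larger sets were added after values were seen. Rebuilt means were tested on simulated data. Recovery was tested there only for smaller products of cells and mean than the largest allowed here, 29. The sets of lamp2 in c1 and c3, atp6v0d1 and ctss1 in c5, and atp6v1g1 and atp6v1e1b in c4 were among those outside the tested range. Member identifiers were found in the reference names for 44 of 44 and overall for 18929 of 19914, and gene neighbours come from the GRCz12tu annotation. Python 3.11.15, pandas 2.3.3 and scipy 1.17.1 were used.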

Additional observations from a re-analysis of the deposited data

How the results depend on the processing

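The counts of 0 members past a difference of 0.5 depended on the threshold and on the quantity. Below, all genes means the 1467 found in at least 10% of all cells. Between c5 and c3, a threshold of 0.25 gave 1 higher (atp6v0cb) and 1 lower (ctsd), beside 14.8% and 13.4% of all genes. The level in positive cells gave 3 higher, beside 20.6% of all genes, and a threshold of 10 percentage points in the share gave 1 higher (atp6v0e1) and 1 lower (ctsd), beside 10.5% and 13.0%. For c4, the level in positive cells gave 12 lower and the share gave 12 higher, beside 88.3% and 95.4% of all genes. For c2, a threshold of 0.25 gave 4 lower, beside 32.9% of all genes. The level in positive cells gave 1 higher and 8 lower in c2, beside 6.61% and 58.8%, and c5 alone in place of the pooled clusters gave 1 lower, beside 16.0%. No filter on the share, a filter of 25% of all cells, and c1, c3 and c5 weighted equally left these counts at 0. The setting with no filter could not change them. It adds only rarer members, whose highest mean in any cluster was 0.36, for atp6v0d1 in c5. Of the other genes past 0.5, tcirg1a and cst14a.2 turned direction in c2 when shares were compared, at 0.60 and 0.023 percentage points. Below 0.5, sort1a and cst3 in c2 (6.55 and 2.08 points) and tcirg1a and lgmn in c4 (31.6 and 36.1 points) also had larger shares with lower means.

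No paired analysis was possible because the deposited values pool the cells of all plates, and leaving out a replicate was not possible for the same reason. With 72 cells in c5, a share of 0 allows up to 4.17% as 3 cells (4.99% by the exact interval), so most of the rarer members cannot be ordered between clusters at this depth.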

Other observations

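A cell had 2.13 detected lysosomal hydrolases in c1, 2.205 in c2, 2.22 in c3, 4.15 in c4 and 2.50 in c5, of 42 measured genes. Cathepsin inhibitors, with 6 measured genes, stood at 0.866, 0.869, 1.197, 1.82 and 0.972 per cell. V-ATPase partners had a median difference of 0.24 between c5 and c3 over 4 genes found in at least 10% of all cells, the highest of the 6 lists, and cathepsin inhibitors one of -0.20 over 3, the lowest.

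Several of the largest single-cell counts of rare members were in c2. A c2 cell held 218 corrected counts of atp6v1ab, another 179 of lamp1b, another 141 of lamp2 and another 131 of ctss2.2, and whether these were the same cell cannot be read from pooled values. The highest values in c1, c3, c4 and c5 among the solved sets were 106, 132, 79 and 76.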
